A study of Mus with 9 samples.

Results

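The 10 genes described here, of astrocytes and glutamate uptake, were followed in the hippocampus of senescence-accelerated mice. They were chosen by gene symbol from the deposited array tables. All 10 were found, each on 1 probe set (the probes that together measure 1 transcript cluster) of the 22206 on the Clariom S Mouse array. Gfap and Vim were taken as markers of reactive astrocytes, and Aqp4, S100b, Slc1a2, Slc1a3, Aldh1l1, Glul, Gja1 and Sox9 as 8 homeostatic genes. For 9 of the 10 the symbol stood alone in its cell, whereas Glul shared its probe set with the microRNA gene Mir8114.

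The arrays form 3 groups of 3. SAMR1 is a senescence-resistant strain and served as the control, SAMP8 is the senescence-accelerated mouse prone 8, which develops memory loss early in life, and the last group was SAMP8 given trigonelline (TG), a plant alkaloid, by mouth for 30 days at a daily 5 mg/kg. SAMR1 and SAMP8 received vehicle alone, which is saline in the records and water in the methods. The source field of the treated records gives TG as 5 mg/ml, whereas their protocol gives 5 mg/kg. Dosing went on through 8 days of behavioral testing in the Morris water maze. The SAMP8 mice were male and 16 weeks old per the methods, while no source used here gives the age of SAMR1. SAMP8 and SAMR1 are separate inbred strains, so that any gene may differ between them by strain background as well as by aging, and these cannot be told apart here.

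The values are the authors' group averages on the log2 scale (SST-RMA signal), with 1 average for each group and probe set. The tables hold no value per array for these genes, so no SD or standard error can be given and no test was run here. The authors' own p-values in the tables were not used, and which neighbouring groups differ beyond the spread between arrays is not said. Differences below are differences of log2 group averages and are descriptions. A gene was counted as higher or lower when its groups differed by more than 1.5-fold, which is 0.585 on the log2 scale. No probe set had a SAMP8 average that differed between the 2 tables (0 of 22206). The strain comparison (SAMP8 minus SAMR1) and the treatment comparison (TG-treated SAMP8 minus SAMP8) therefore rest on the same 3 SAMP8 arrays, so that an error in those arrays enters both with opposite sign. Signals of different probe sets depend on their probes and were not compared with each other.

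Astrocytes clear glutamate from the synapse through sodium-dependent transporters, convert it to glutamine with glutamine synthetase and return the glutamine to neurons. They also buffer potassium and water at their endfeet and are joined to each other by gap junctions. In injury, aging and disease they enlarge and make more of the intermediate filament proteins GFAP and vimentin, a state called reactive. The hippocampus, which is required for spatial memory, is rich in both astrocytes and glutamatergic synapses.

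Gfap showed the widest strain difference of the 10 genes, and Slc1a3 the next. Both were more than 1.5-fold higher in SAMP8 than in SAMR1, and none of the 10 was lower by that amount. Among all probe sets 5.0% were higher and 6.08% lower past this limit, 11.1% in either direction. In the treatment comparison none of the 10 passed 1.5-fold in either direction, against 4.48% higher and 3.74% lower among all probe sets (8.21% in all). S100b lay just under the limit and was 1.49-fold higher with TG. TG-treated SAMP8 stood more than 1.5-fold above SAMR1 for Gfap and Sox9, where 5.62% of all probe sets were higher and 4.83% lower (10.5% in all).

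**Figure D1:**
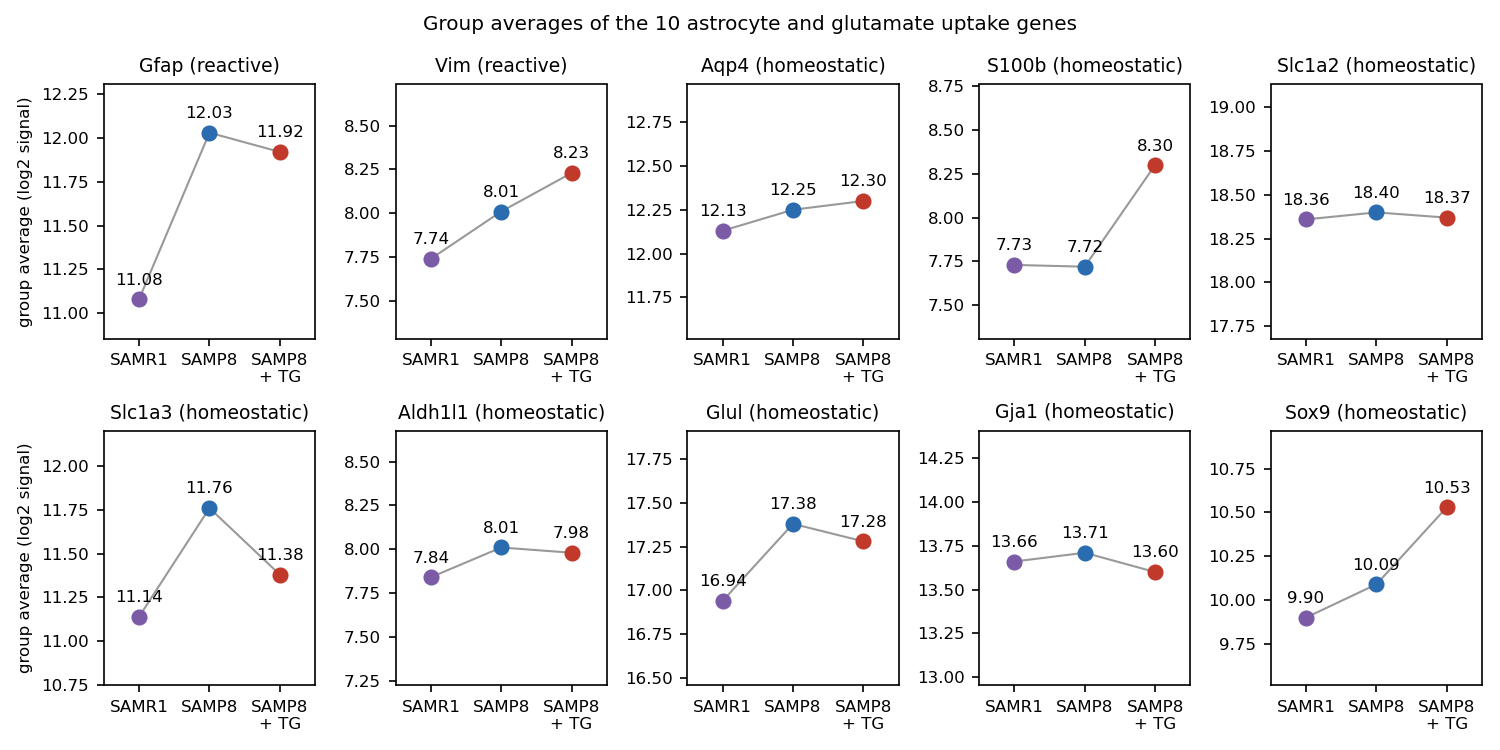
Group averages of the 10 genes. Each panel is 1 gene, the vertical axis is the authors' group average (log2 signal, the same span in every panel but a different range), and each point is 1 group of 3 arrays, with no error bar because the tables hold averages alone. Gfap and Slc1a3 were highest in SAMP8, S100b and Sox9 were highest with TG, and Slc1a2 stayed between 18.36 and 18.40.

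Gfap encodes glial fibrillary acidic protein, the main intermediate filament of astrocytes (GRCm38 chr11:102887336-102897200). Its average (log2) was 11.08 in SAMR1, 12.03 in untreated SAMP8 and 11.92 in SAMP8 given TG. SAMP8 was higher by 0.95, or 1.93-fold, and the treated group differed from SAMP8 by -0.11, or 1.08-fold lower. Both SAMP8 groups thus lay well above SAMR1, and the treated group kept a difference of 0.84 from it (1.79-fold). Of all probe sets, 0.968% had a higher strain difference than Gfap.

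Vim encodes vimentin, a filament protein of reactive astrocytes that is also made by endothelial and meningeal cells (chr2:13574311-13582826). In the same order of groups, kept below, its averages were 7.74, 8.01 and 8.23. The differences were 0.27 between strains (1.21-fold) and 0.22 with TG (1.16-fold), neither past the limit. The treated group was the highest, 0.49 above SAMR1, so that Vim was not ordered as Gfap was. Of all probe sets, 19.6% had a higher strain difference than Vim and 23.0% a higher treatment difference.

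No strain difference like that of Gfap was measured for the other filament genes of glia, although their signals were low. Nes (nestin, a filament of progenitors and of some reactive astrocytes), Synm (synemin) and Des (desmin, a filament of muscle and pericytes) differed between strains by -0.09, -0.18 and 0.00. With TG their differences were 0.28, -0.05 and -0.31. Des lay between 3.15 and 3.46 and Nes between 4.77 and 5.05 in the 3 groups, toward the low end of the signal range, and whether a difference would show there was not tested. Of the 5 filament genes, Gfap was the single one past 1.5-fold in the strain comparison, and none passed with TG.

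Slc1a2 encodes GLT-1, the transporter that carries out most glutamate uptake in the forebrain (chr2:102658239-102790784). Its averages were 18.36, 18.40 and 18.37, and the 3 groups lay within 0.04 of each other. This probe set sits near the top of the signal range, which ended at 19.93. Of the 103 probe sets with a mean of at least 17, 14 had the same average in all 3 groups to the 2 decimals given, among them those of Syt1 and Camk2a, and 6.8% passed 1.5-fold between strains. Of the 37 probe sets with a mean within 0.5 of that of Slc1a2, itself included, 10.8% passed between strains and 0.0% with TG. Among all probe sets 11.1% and 8.21% did. How far a change in Slc1a2 RNA would show at this height of the scale was not tested.

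Slc1a3 encodes GLAST, the other astrocyte glutamate transporter, which is also made by radial glia and by Bergmann glia of the cerebellum (chr15:8634124-8710807). Its averages were 11.14 in SAMR1, 11.76 in SAMP8 and 11.38 with TG. SAMP8 was higher by 0.62 (1.54-fold), just past the limit. The treated group differed from SAMP8 by -0.38 (1.30-fold lower), the lowest treatment difference among the 10 genes, and remained 0.24 above SAMR1. Its averages thus ran from SAMR1 to TG-treated SAMP8 to SAMP8, while those of Slc1a2 were nearly level.

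Glul encodes glutamine synthetase, which turns glutamate and ammonia into glutamine and is made in the brain mainly by astrocytes (chr1:153899929-153909723). Its averages were 16.94, 17.38 and 17.28. SAMP8 was higher by 0.44 (1.36-fold) and the treated group differed from SAMP8 by -0.10. The treated group remained 0.34 above SAMR1 (1.27-fold). Glul too has a mean above 17, in the stretch of the scale described for Slc1a2.

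**Figure D2:**
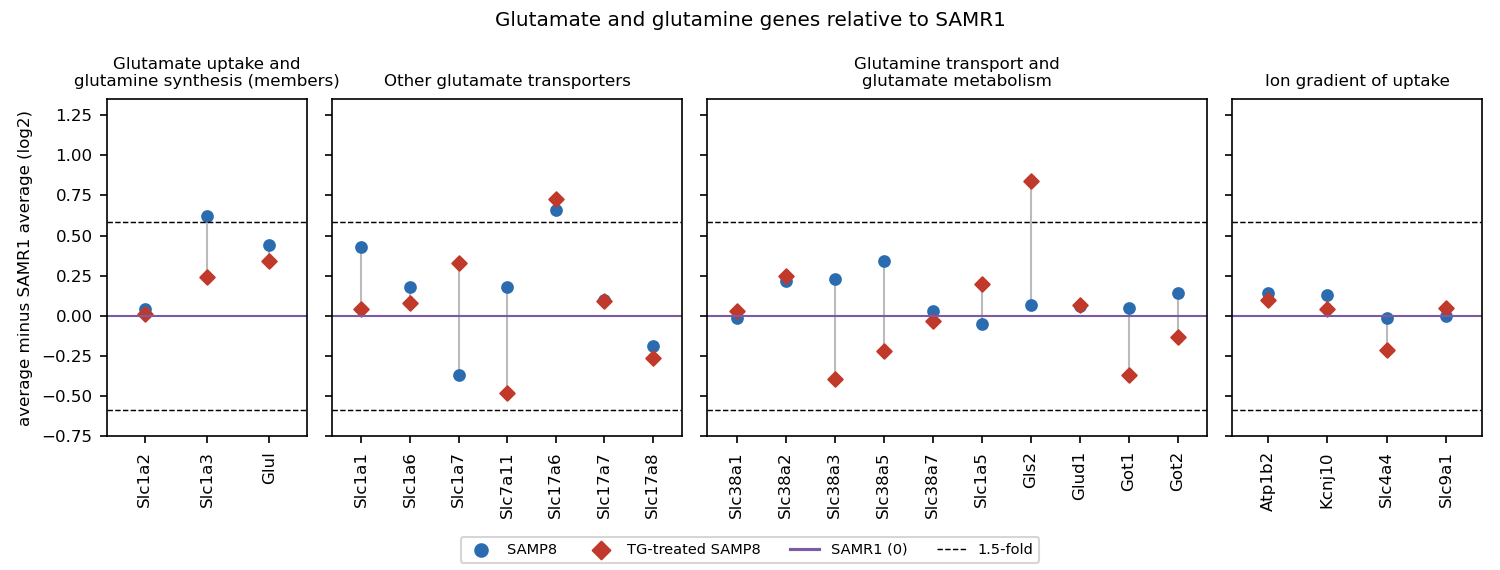
Glutamate and glutamine genes relative to SAMR1. The vertical axis is the group average minus the SAMR1 average (log2), circles are SAMP8, diamonds are TG-treated SAMP8, and dashed lines mark 1.5-fold. Not every gene of the lists is shown. Slc1a3, Slc1a1, Slc38a3 and Slc38a5 had their circle above their diamond, and Slc1a2 had both near 0.

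The remaining glutamate transporters were taken as a list of 7. In this list 1 gene was past 1.5-fold higher in SAMP8 and none lower, with a median strain difference of 0.18, where the median of all probe sets was 0.00. That gene was Slc17a6 (VGLUT2, a vesicular transporter of thalamic and other projection neurons), at 7.48, 8.14 and 8.21. Slc1a1 (EAAC1, the neuronal uptake carrier) averaged 10.75, 11.18 and 10.79, a difference of 0.43 between strains and -0.39 with TG. Slc1a7 (EAAT5, known mainly from the retina) differed by -0.37 between strains and was 0.70 higher with TG. Slc7a11, the cystine-glutamate exchanger that releases glutamate from astrocytes, differed by -0.66 with TG, at 8.18 against 8.84. With TG 1 of the 7 was past the limit upward and 1 downward. Slc17a7 (VGLUT1, of cortical and hippocampal excitatory neurons) averaged 18.02, 18.12 and 18.11.

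Glutamine transport and glutamate metabolism, a list of 11 genes, had none past 1.5-fold between strains in either direction and a median difference of 0.07. Slc38a5 and Slc38a3, the glutamine transporters through which astrocytes release glutamine, had strain differences of 0.34 and 0.23. With TG, Slc38a3 differed by -0.62 and passed the limit, and Slc38a5 by -0.56 and did not. Gls2, the liver-type glutaminase, was 0.77 higher with TG, at 8.19 against 7.42, and was the single gene of this list past the limit upward. The list's median with TG was -0.06.

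Uptake is driven by the sodium gradient, and 5 genes of that gradient and of potassium and acid-base balance differed little. None passed 1.5-fold in either comparison. Kcnj10 (Kir4.1, the potassium channel of astrocytes) averaged 11.98, 12.11 and 12.02. Slc4a4, the sodium bicarbonate cotransporter, differed by -0.20 with TG.

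Aqp4 encodes the water channel of astrocyte endfeet (chr18:15389394-15410982). Its averages were 12.13, 12.25 and 12.30, with differences of 0.12 between strains and 0.05 with TG. Gja1 encodes connexin 43, the main gap junction protein of astrocytes (chr10:56377300-56390419), and averaged 13.66, 13.71 and 13.60. Its differences were 0.05 and -0.11. For both genes the 3 groups lay within 1.2-fold of each other.

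A list of 9 partners of these channels held genes with wider differences. Gjb6, which encodes connexin 30, another astrocyte connexin, averaged 8.72 in SAMR1, 9.59 in SAMP8 and 9.04 with TG. It was 1.83-fold higher in SAMP8 and differed from SAMP8 by -0.55 with TG, with the groups ordered as for Slc1a3. Dag1 (dystroglycan, which helps to anchor AQP4 at endfeet) differed by -0.72 with TG and passed the limit. Tjp1 (ZO-1, a scaffold of junctions) differed by -0.50 and did not. Of the 9, 1 was past the limit upward between strains and 1 downward with TG. Mlc1, a membrane protein of endfeet, differed by 0.27 between strains and 0.01 with TG.

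S100b encodes a calcium-binding protein of astrocytes that some oligodendrocytes also make (chr10:76253836-76261319). SAMR1 averaged 7.73 and SAMP8 7.72, and the treated group averaged 8.30. The difference was -0.01 between strains and 0.58 with TG, the highest of the 10 genes in that comparison. Only the treated group stood apart, and it stood apart from both others by a similar amount. Since the averages are given to 2 decimals, whether S100b passed 1.5-fold lies within rounding.

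Sox9 encodes a transcription factor that specifies astrocytes and marks their nuclei in the adult brain (chr11:112782210-112787757). Its averages were 9.90, 10.09 and 10.53. The difference was 0.19 between strains and 0.44 with TG (1.36-fold), and the treated group was 0.63 above SAMR1 (1.55-fold). As with Vim, the treated group was highest and SAMR1 lowest. Among 12 other factors of astrocyte fate none passed 1.5-fold in either comparison, and the median was 0.05 in each. Id3, a BMP-responsive inhibitor of differentiation, had the highest strain difference, 0.58, and Sox2, a factor of neural stem cells and astrocytes, the highest treatment difference, 0.35. Hes5, a Notch target, differed by -0.43 and then by 0.33.

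Aldh1l1 encodes a folate enzyme used as a general astrocyte marker (chr6:90550768-90599171). Its averages were 7.84, 8.01 and 7.98, with differences of 0.17 and -0.03. This general marker was thus within 1.2-fold in all 3 comparisons, as were Aqp4, Gja1 and Slc1a2. In whole hippocampus, more astrocytes and more RNA per astrocyte cannot be told apart, for these genes or for those that differed.

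**Figure D3:**
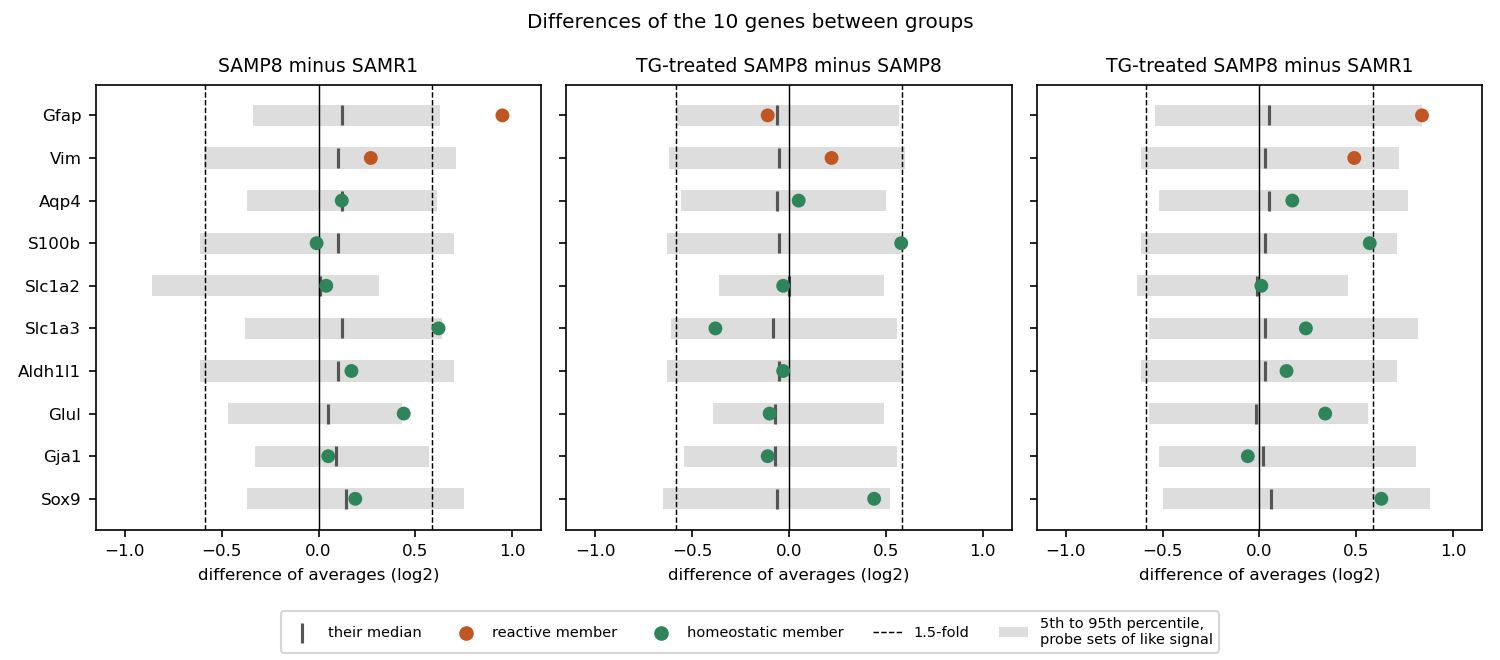
Differences of the 10 genes in the 3 comparisons. The horizontal axis is the difference of group averages (log2), points are genes (orange reactive, green homeostatic), grey bars run from the 5th to the 95th percentile of probe sets with a mean signal within 0.5 of the gene's, ticks are their medians, and dashed lines mark 1.5-fold. In the strain comparison Gfap at 0.95 lay outside its bar, and Glul at 0.44 lay just past the upper end of its own, 0.43. S100b at 0.58 lay near the upper end of its bar with TG.

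Set against each other, the reactive pair had a mean strain difference of 0.61 and the 8 homeostatic genes one of 0.20, a gap of 0.41. The gap rested on Gfap, since without it Vim alone gave a gap of 0.07, and without Vim the gap was 0.75. With TG the means were 0.055 and 0.052, a gap of 0.00. It was 0.17 without Gfap and -0.16 without Vim, because the pair went opposite ways. Relative to SAMR1, the treated group had a gap of 0.41 again, with means of 0.66 and 0.26. No homeostatic gene was lower in SAMP8 by more than 0.01, and 9 of the 10 genes had a strain difference above 0, where 49.5% of all probe sets did. The median of the 10 was 0.18 between strains, -0.03 with TG and 0.29 for the treated group against SAMR1.

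At lower limits more of the 10 genes were counted, and so were more of all probe sets. Between strains 6 of the 10 differed by more than 1.1-fold and 4 by more than 1.2-fold (Gfap, Slc1a3, Glul and Vim), all of them higher in SAMP8, against 65.5% and 40.8% of all probe sets in either direction. With TG 4 differed by more than 1.1-fold and 3 by more than 1.2-fold (S100b and Sox9 higher, Slc1a3 lower), against 63.4% and 38.2%. For TG-treated SAMP8 against SAMR1 the numbers were 8 and 5, against 64.9% and 40.5%. None of the 10 differed by more than 2-fold in any comparison, as 2.22%, 0.761% and 1.81% of all probe sets did.

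Differences in these tables also depended on signal height. When all probe sets were divided into deciles of mean signal, the median strain difference ran from -0.10 in deciles 3 and 4 to 0.14 in deciles 8 and 9, and the median treatment difference from 0.06 to -0.06. All 10 genes lie in decile 7 or above, where 59.7% to 69.0% of probe sets had a higher average in SAMP8. For this reason each gene was also set against probe sets with a mean signal within 0.5 of its own, a comparison added after the data were seen. After their median was subtracted, the strain difference was 0.83 for Gfap, 0.50 for Slc1a3, 0.39 for Glul, 0.17 for Vim and 0.07 for Aldh1l1. Slc1a3 then no longer passed 1.5-fold. Among probe sets of like signal, 0.74% had a higher strain difference than Gfap, 5.59% than Slc1a3 and 3.51% than Glul. The values of Aqp4, Sox9, Slc1a2 and Gja1 came to 0.00, 0.05, 0.03 and -0.04, and that of S100b to -0.11, so that 7 of the 10 lay above the like-signal median.

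The same subtraction gave a treatment difference of 0.63 for S100b, now past 1.5-fold, and of 0.50 for Sox9, 0.27 for Vim and 0.11 for Aqp4. Slc1a3 came to -0.30, and the other 5 genes lay between -0.05 and 0.02. Among probe sets of like signal, 5.14% had a higher treatment difference than S100b and 7.28% than Sox9. For TG-treated SAMP8 against SAMR1, Gfap came to 0.79 and Sox9 to 0.57, which is just under the limit.

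**Figure D4:**
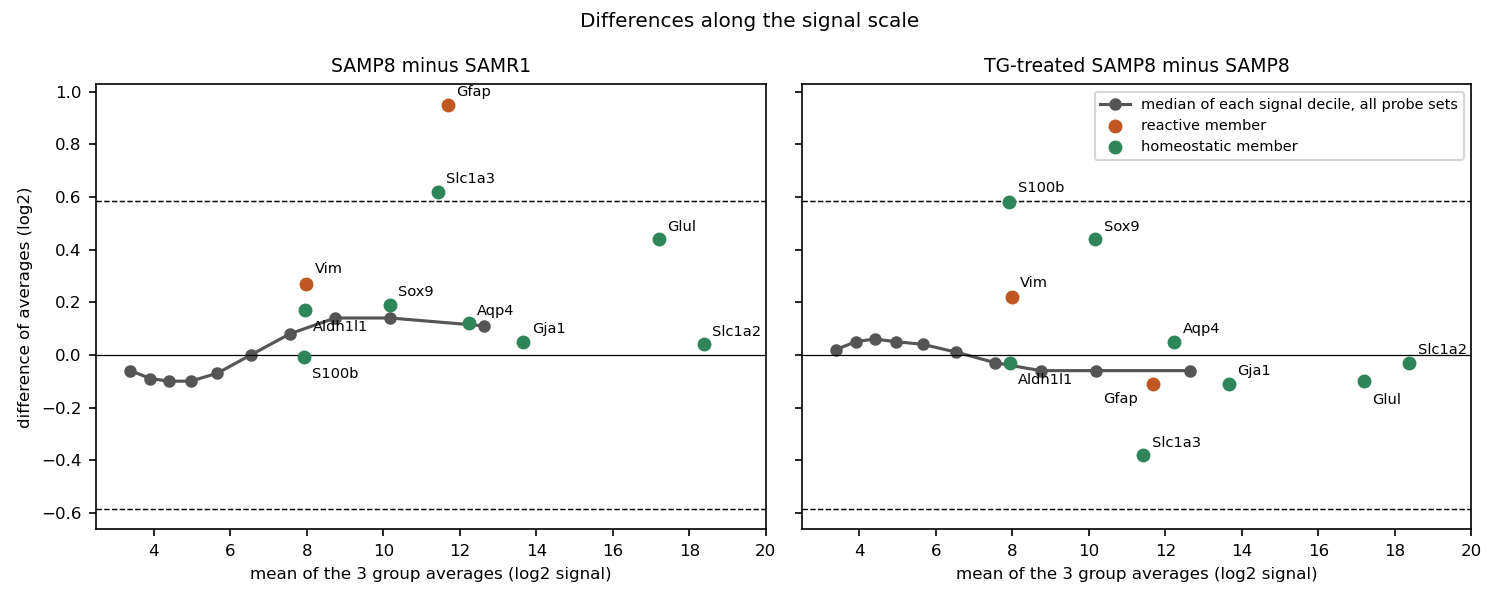
Differences along the signal scale. The horizontal axis is the mean of the 3 group averages (log2 signal), the vertical axis is the difference of averages (log2), the grey line joins the medians of the signal deciles of all probe sets, and dashed lines mark 1.5-fold. In the strain comparison the grey line runs from -0.10 up to 0.14 and Gfap at 0.95 stands farthest above it, and in the treatment comparison the line falls to -0.06 while S100b and Sox9 stand above it and Slc1a3 below.

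Genes known from reactive astrocytes in other models showed no common direction between strains. Of 11 genes of general reactivity, 1 was past 1.5-fold upward and none downward between strains, with a median of 0.00. That gene was Serpina3n, a secreted protease inhibitor strongly made by reactive astrocytes, at 10.76 in SAMR1, 11.73 in SAMP8 and 11.44 with TG. Its strain difference of 0.97 was close to that of Gfap. With TG 10 of the 11 had a lower average than SAMP8, where 48.3% of all probe sets did, with a median of -0.19, and 1 passed the limit. This was Cp (ceruloplasmin, a copper-binding ferroxidase), at 7.62 in SAMP8 and 6.39 with TG, followed by Cd44, a hyaluronan receptor, at -0.51 and S1pr3, a sphingosine phosphate receptor, at -0.36. Many of these genes had low averages, and Lcn2, Timp1 and Cxcl10 lay between 2.99 and 3.55 in every group, near the lowest average in the tables, 2.39.

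Of 12 genes from the neuroinflammatory form of reactivity, 1 was higher and 1 lower past the limit in SAMP8, with a median of -0.095. They were the class I histocompatibility genes H2-T23, at 0.99, and H2-D1, at -0.60 on a probe set shared with H2-L. None of the 12 passed with TG, where Serping1, the complement C1 inhibitor, differed by -0.53 and Psmb8, an immunoproteasome subunit, by 0.51. Of 12 genes from the ischemic form, 2 were lower past the limit in SAMP8 and none higher, with a median of -0.215. These were Tgm1 (a transglutaminase), at -1.03, and Sphk1 (sphingosine kinase), at -0.91. With TG this list had a median of 0.225 and 1 gene lower past the limit, Ptgs2 (cyclooxygenase 2), which averaged 8.03, 7.80 and 7.18. These lists come from other models and overlap with genes of microglia and vessels, for example Cd14 and Tm4sf1.

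Among 32 further astrocyte markers, 21 had a higher and 9 a lower average in SAMP8, where 49.5% of all probe sets were higher. Past 1.5-fold, 3 were upward and 1 downward, against 5.0% and 6.08% of all probe sets. The list's median was 0.185. After the like-signal subtraction it was 0.08, and 21 of the 32 lay above the like-signal median. Pla2g7, a lipoprotein-associated phospholipase, averaged 10.08, 11.29 and 10.64. Sparc, a secreted matrix protein that endothelial cells and microglia also make, averaged 12.48, 13.65 and 13.01. Ppp1r3c, a subunit that directs a phosphatase to glycogen, was 0.99 higher in SAMP8 than in SAMR1 and averaged 10.99 in SAMP8 and 10.96 with TG. The gene lower past the limit was Ntsr2, a neurotensin receptor, at -0.96. Pla2g7 and Sparc were intermediate with TG, while Ppp1r3c stayed at its SAMP8 level. With TG 2 of the 32 were past the limit upward and 4 downward, against 4.48% and 3.74% of all probe sets. The list's median was -0.005. Entpd2, an ATP-degrading ectoenzyme, differed by -0.72, Etnppl, a phosphoethanolamine lyase, by -0.70, and Pla2g7 by -0.65. The genes past the limit upward were Mt1, a metallothionein, at 0.64 and Cst3, the protease inhibitor cystatin C, at 0.59. Apoe, Mt3 and Slc6a9 of this list, Sphk1 of a list above and C1qa below, among others, had been picked by the study from these same arrays.

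**Figure D5:**
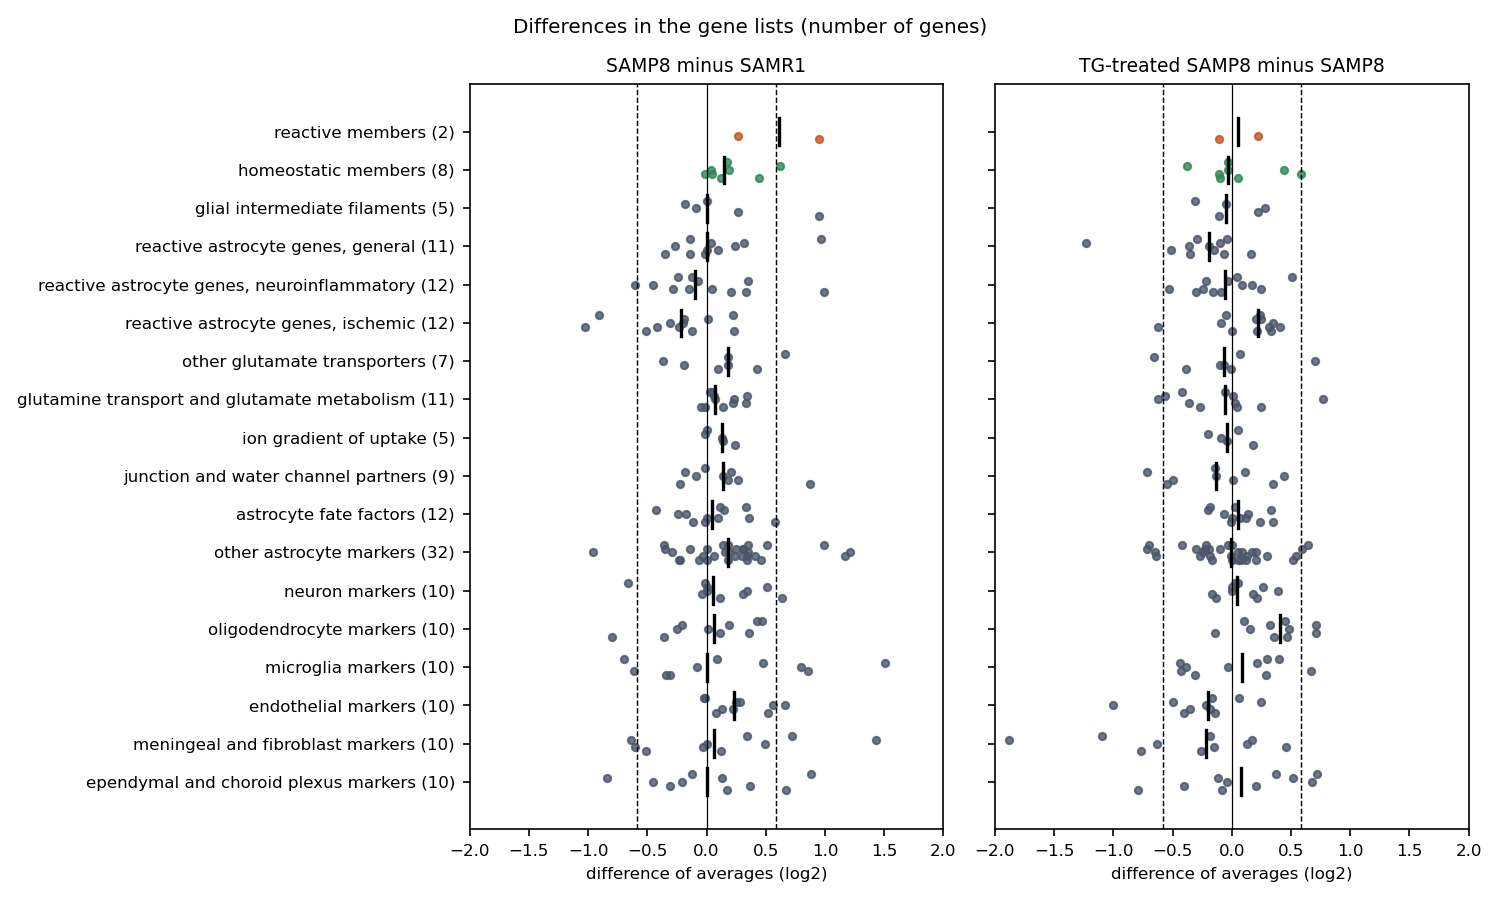
Differences in the gene lists. Each point is 1 gene, the horizontal axis is the difference of group averages (log2), the vertical bar is the list's median, dashed lines mark 1.5-fold, and the number of genes is in parentheses. In the strain comparison the endothelial list had the highest median outside the reactive pair, 0.235, and in the treatment comparison the oligodendrocyte list had the highest median, 0.405.

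Markers of the other hippocampal cell types were examined in the same way. Neuron markers averaged between 11.45 and 19.93 and had 1 of 10 higher and 1 lower past the limit in SAMP8, Stmn2 at 0.64 and Map2 at -0.66, with none past it under TG. Oligodendrocyte markers went both ways between strains, with a median of 0.06, 1 of 10 lower past the limit (the myelin gene Mobp, at -0.80) and none higher, while Cnp and Olig2 differed by 0.47 and 0.43. With TG 9 of the 10 had a higher average than in SAMP8, whereas 48.3% of all probe sets had a lower one and 1.65% the same, with a median of 0.405. Cldn11 and Mag, both proteins of myelin, were each 0.71 higher and past the limit. The mean of the list's averages was 10.44 in both untreated groups (from 6.70 to 18.13 in SAMR1 and from 6.45 to 17.77 in SAMP8) and 10.80 with TG (from 6.60 to 18.24), and S100b, which some oligodendrocytes make, was highest in the same group. What part this had in the S100b value was not tested.

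Endothelial markers were higher in SAMP8 more often than not. Of 10, 8 had a higher average in SAMP8, where 49.5% of all probe sets did. All 10 lay above the median of probe sets of like signal, and 1, the VEGF receptor Flt1 at 0.66, passed the limit. With TG 8 of the 10 had a lower average than SAMP8, beside 48.3% of all probe sets, and 1 passed, the transporter Slco1a4, at 11.62 in SAMP8 and 10.62 with TG. The mean of their averages was 7.14 in SAMR1 (from 5.36 to 11.06), 7.41 in SAMP8 (from 5.34 to 11.62) and 7.15 with TG (from 5.23 to 10.62), with SAMP8 highest as for Slc1a3 and Gjb6. Vim, also made by endothelial cells, had its highest average with TG. The part of vessels in the Slc1a3 and Vim values was not tested.

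Microglia markers went both ways in SAMP8, with 3 of 10 higher and 2 lower past the limit and a median of 0.005. Aif1 (IBA1) averaged 5.71, 7.22 and 6.78, whereas C1qa and C1qb, subunits of the same complement protein, differed by -0.61 and 0.80. Among all probe sets 5.0% were higher and 6.08% lower past the limit between strains, and 4.48% and 3.74% with TG. Meningeal and fibroblast markers had 2 of 10 higher and 2 lower past the limit between strains. With TG 7 of the 10 had a lower average, 4 of them past the limit, with a median of -0.22. Fmod, a matrix proteoglycan, averaged 4.66, 6.09 and 4.21, and Ogn, another, 7.81, 8.53 and 7.43. Those lower past the limit in SAMP8 were Col1a2, a collagen chain, at -0.64 and Lum, a further proteoglycan, at -0.60, and Lum was 0.46 higher with TG. Dcn (decorin) differed by -0.51 between strains and by -0.77 with TG. Ependymal and choroid plexus markers went both ways, with 5 of 10 higher and 5 lower in each of these comparisons. Past the limit, 2 were higher and 1 lower in SAMP8, and 2 higher and 1 lower with TG. Ttr (transthyretin, made by choroid plexus) averaged 8.45, 9.33 and 10.05, while Kl (klotho, also of choroid plexus) averaged 6.17, 6.84 and 6.05. Kcne2, another gene of this list, was the 1 lower past the limit in SAMP8, at -0.84, and differed by 0.52 with TG. Gfap is also made by cells lining the ventricle, and how much meninges, choroid plexus or ventricle wall each dissection held was not tested.

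Genes with a pattern of group averages most like that of Gfap, after each gene's mean was subtracted, were sought among 10634 probe sets that carry 1 symbol and have a mean signal above the median. The closest were Rtf1, at a distance of 0.02 (log2), then Vmn2r46 and Pcdh9 at 0.04, and 27 lay within 0.1. Rtf1 averaged 8.23, 9.20 and 9.10. For Vim the closest were Gm4184, Ift81 and Nova1 at 0.01, with 359 within 0.1, and for Slc1a2 Dus1l, Gys1 and Rnf225 at 0.00, with 1272 within 0.1. None of the 3 nearest genes named for each was an astrocyte gene of the lists. Which of the genes within 0.1 were astrocyte genes was not examined. With 3 group averages as points such likeness is a description only.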

How the data were processed

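Hippocampal RNA of 9 mice was hybridized to Clariom S Mouse arrays. Per the labels, the authors processed the scans with SST-RMA, run in TAC (version 4.0.1 in the series text) and deposited 2 tables, each holding log2 group averages for 22206 probe sets to 2 decimals, annotated on mm10 (GRCm38). The tables also hold the authors' linear fold changes and their unadjusted and adjusted p-values, which were not used. A description attached to the records concerns a macrophage cell line and was set aside, and the series text speaks of duplicate samples where the records list 3 arrays a group.

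Genes were matched by symbol, counting a symbol that shares its cell with others. For a gene with several probe sets the one with the highest mean was used. Differences of the deposited log2 averages were taken for all probe sets, and 1.5-fold was the limit of a call. No test was possible without values per array, and the precision of each average is limited by the few arrays behind it. The 10 genes were also described beside 16 lists of 176 genes in all, naming the 3 genes of each list with the largest differences in either direction, and a few genes (Nes, Synm, Des, Lcn2, Timp1, Cxcl10, Slc17a7, Kcnj10, Cd14, Tm4sf1, Ntsr2, Mt1, Cst3, Lum) were chosen for naming once their values had been seen. Some genes of the lists are counted but not reported by name here. The genes and lists were chosen with earlier results of these data known. Gene positions are from RefSeq (GRCm38.p6). The fold call was tried on simulated data with shifts well past the limit and little noise, so that recovery was assured. Symbol matching was tried on a small made-up example, and the other steps were not tested in this way. Alternatives were other fold limits, filters on low signal, leaving out each member, and the median of the homeostatic genes in place of their mean. Others were averaging the probe sets of a gene, taking SAMP8 from the other table, and subtracting a median difference. That median was of all probe sets, or of probe sets of like signal (within 0.5). Python 3.11.15, numpy 2.4.6, pandas 2.3.3 and matplotlib 3.10.9 were used.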

Additional observations from a re-analysis of the deposited data

How the results depend on the processing

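The number of the 10 genes past the fold limit depended on that limit. Between strains it was 2 at 1.5-fold, 6 at 1.1-fold, 4 at 1.2-fold and 0 at 2-fold. For TG-treated SAMP8 against SAMP8 it was 0 at 1.5-fold, 4 at 1.1-fold and 3 at 1.2-fold, and for TG-treated SAMP8 against SAMR1 it was 2, 8 at 1.1-fold, 5 at 1.2-fold and 0 at 2-fold. After the median of probe sets of like signal was subtracted, an alternative chosen after seeing the data, the number was 1 in each comparison (Gfap, S100b and Gfap). Of 110 differences of single genes recomputed under the alternatives, 106 stayed within 0.1 of the log2 value reported. Averaging the probe sets of a gene and taking SAMP8 from the other table could move none of them, since each gene has 1 probe set and both tables hold the same SAMP8 averages. Subtracting the median of all probe sets (0.00, 0.01 and -0.01 in the 3 comparisons) could shift none by as much as 0.1. Most of the 106 were thus fixed in advance, and only the like-signal subtraction could move a value further. After the like-signal subtraction 2 values under 0.1 in size changed sign, Gja1 between strains (-0.04) and Aldh1l1 with TG (0.02). The 4 that moved further were strain differences after this subtraction, of Gfap (0.83), Aqp4 (0.00), Slc1a3 (0.50) and Sox9 (0.05). Without the lowest 25% or the lower 50% of probe sets by mean signal, the share of all probe sets past 1.5-fold was 12.6% and 12.0% between strains, 9.64% and 10.2% with TG, and 12.3% and 13.5% for the treated group against SAMR1. The gap between reactive and homeostatic genes, with 1 gene left out at a time, ranged from 0.07 to 0.75 between strains, from -0.16 to 0.17 with TG, and from 0.24 to 0.58 for the treated group against SAMR1. In each, both ends came from leaving out Gfap or Vim. Without Gfap the gap was 0.07, 0.17 and 0.24, and without Vim 0.75, -0.16 and 0.58. With the median of the homeostatic genes in place of their mean it was 0.46, 0.08 and 0.46.

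No paired analysis was possible because the tables hold 1 average per group, so that replicate numbers cannot be used, and leaving out single arrays could not be run for the same reason. The averages are given to 2 decimals, and at the top of the signal range 14 of 103 probe sets were identical in all 3 groups. Whether this limits what Slc1a2 and Glul can show was not tested.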
